A study of Bos taurus with 12 samples.

Results

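Lipid droplet coat proteins sit on the surface of the droplets in which cells store neutral lipid, and the genes followed here are PLIN2, PLIN3, PLIN4, CIDEC and HILPDA. They were chosen by name in the table of mRNA expression, and all 5 were found among its 33714 rows. PLIN2, PLIN3, PLIN4 and CIDEC each had a row of their own. HILPDA shared 1 row with FAM71F2, its neighbour in the RefSeq annotation of the ARS-UCD2.0 assembly, so the values given for HILPDA are those of the joint row and the part of FAM71F2 in them cannot be told apart. Expression was deposited as FPKM, fragments scaled to the length of the transcript and to the mapped fragments of the library.

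The cells were preadipocytes, the precursors of fat cells, freed with collagenase from longissimus dorsi of newborn Qinchuan cattle and kept by their adherence to the dish, with no sort. Cells were collected without induction (0 d) or 3, 6 and 9 d after its start, and 3 libraries a day gave 12 in all. Induction began near confluence with 0.5 mM IBMX, a phosphodiesterase inhibitor, the glucocorticoid dexamethasone and insulin, and after 48 h the cells were given insulin alone. The 3 d cells were therefore the first collected after IBMX and dexamethasone had been withdrawn, and serum-containing DMEM-F12 was common to all days. The doses of dexamethasone and of insulin differ between the labels and the study's methods and are not given here. The replicates are described as biological, but the number of animals is not given in the sources used here, so the p-values measure only the spread between these libraries. The number of fragments behind an FPKM value is unknown.

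Perilipins coat lipid droplets and govern the access of lipases to the stored triglyceride. PLIN2 is found on droplets of most cell types and PLIN1 mainly on those of adipocytes, while PLIN3 and PLIN4 move between the cytosol and newly formed droplets. CIDEC passes lipid between touching droplets and favours the large droplet of white adipocytes, and HILPDA, a small protein known as hypoxia-inducible, binds and inhibits the lipase PNPLA2.

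The question put to the coat protein genes was how their mRNA changed over differentiation. Every later day was set against 0 d, and 6 d was also set against 3 d and 9 d against 6 d. Tests were made with limma on log2(FPKM + 0.1) for the 15402 mRNAs with a mean FPKM of at least 0.1, so fold changes of low genes are understated. An mRNA was called when its absolute log2 fold change was over 1 and its adjusted p-value, by Benjamini-Hochberg over all mRNAs tested, was under 0.05. All 5 genes passed the filter. CIDEC had a mean below 0.1 at 0 d and passed through its later values, so that its inclusion was not independent of its course. The same holds for ADIPOQ, PCK1, G0S2 and PNPLA3 among the genes of other lists named below, and CIDEB and LEP had means below 0.1 at 3 d and passed through other days.

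The labels call the cells intramuscular adipocytes, and marker lists were used to check this. The 7 adipocyte markers (ADIPOQ, FABP4, LEP, PLIN1, PPARG, LPL and PCK1) had sums of 53.79, 61.46 and 61.77 FPKM in the 0 d libraries, 176.79, 176.68 and 182.34 in those of 3 d, 90.59, 97.39 and 102.53 in those of 6 d, and 91.9, 76.1 and 89.98 in those of 9 d. Their sum was highest at 3 d, and the row of PLIN1, shared with PEX11A, had the highest mean over the 12 libraries (35.1 FPKM), although at 3 d FABP4 (mean 91.1 FPKM) stood above it (47.0 FPKM). ADIPOQ, which defines mature adipocytes, had 0.01 to 0.03 FPKM at 0 d and at most 1.64 later, and PCK1 had at most 0.27, so both stayed low beside PLIN2. At 3 d, 4 of the 7 markers rose and 1 fell, and 3 rose at 6 d and at 9 d. Of all mRNAs tested, 8.06% (3 d), 3.39% (6 d) and 3.41% (9 d) were called higher against 0 d. Called lower were 15.2%, 7.97% and 7.47% on these days, and these shares apply to every marker list here. FABP4 rose most at 3 d (log2 fold change 4.75), ADIPOQ (2.68) and PCK1 (1.21) rose from levels near 0, and LEP fell by 4.06 at 3 d and rose by 3.06 at 9 d.

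Of 8 skeletal muscle markers, PAX7 was not analysed here, and the other 7 (MYOD1, MYOG, DES, ACTA1, CKM, MYH3 and TNNT1) had sums of 828.57, 868.24 and 949.3 FPKM in the 0 d libraries, 259.87, 286.36 and 281.66 in those of 3 d, 396.15, 377.73 and 418.94 in those of 6 d, and 329.93, 296.06 and 323.34 in those of 9 d. DES was the most abundant (mean 263 FPKM), and none of the 7 was at 0 on every day, although TNNT1 was at 0 in 1 library at 3 d. All 7 fell at 3 d and 5 at 6 d and at 9 d, with a median log2 fold change of -1.51, -1.97 and -1.92. The sum was lowest at 3 d, as were DES, CKM and TNNT1, while MYOD1, ACTA1 and MYH3 had their lowest mean at 6 d and MYOG at 9 d. On the log2 scale CKM fell by 5.39, TNNT1 fell by 4.80 (both at 3 d) and MYOD1 fell by 2.51 at 6 d. The 6 preadipocyte and fibroblast markers (PDGFRA, DLK1, THY1, COL1A1, DCN and PDGFRB) summed to 13264 to 14077 FPKM without induction and to 43644 to 45711 at 3 d. Their range was 34321 to 35806 FPKM at 6 d and 48147 to 49300 at 9 d. Against 0 d, 3 of the 5 tested rose and 2 fell at 3 d, 2 rose and 1 fell at 6 d, and 1 rose at 9 d. DCN led them with a mean of 32077 FPKM, and DLK1 reached at most 0.13. PDGFRA and THY1 were highest at 3 d (log2 fold changes 2.54 and 1.85), DCN rose by 2.16 at 9 d, COL1A1 fell by 1.68 at 3 d, and PDGFRB fell by 1.47 at 6 d. The 5 endothelial markers (PECAM1, CDH5, VWF, KDR and TEK) summed to 2.47 to 3.49 FPKM in all 12 libraries, with VWF leading at a mean of 2.06, CDH5 at 0.12 or less, and PECAM1 and KDR at 0.03 or less. VWF (log2 fold change -0.33 at 3 d) and TEK (0.91) were the 2 tested and were not called against 0 d. The 5 macrophage and immune markers (PTPRC, CD68, CD14, CSF1R and AIF1) had sums of 1.11 to 1.35 FPKM without induction and of 3.44 to 3.74 at 3 d. The sums were 1.81 to 1.85 FPKM at 6 d and 2.23 to 3.32 at 9 d. CD14 was the most abundant (mean 1.64 FPKM) and rose by 1.71 at 3 d, CSF1R rose by 1.23 at 3 d, and of the 3 tested only CD14 rose at 9 d (1.59). PTPRC was listed at 0 in all 12 libraries. The part of these marker changes in the results below was not tested, and in bulk RNA fewer cells of a type and less RNA per cell cannot be told apart.

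**Figure D1:**
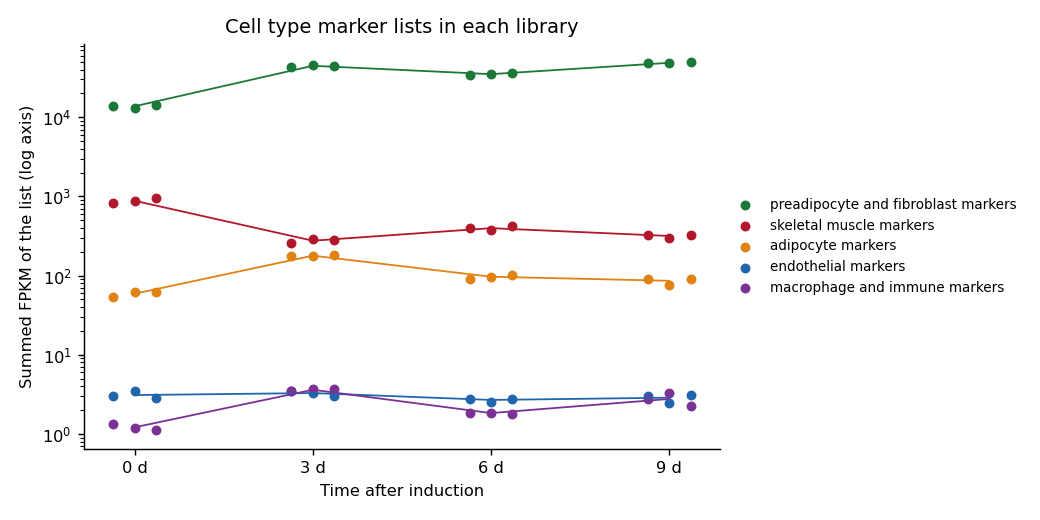
Summed FPKM of 5 marker lists in each of the 12 libraries (points, log axis) with the mean of each day joined by a line. The summed adipocyte markers were highest at 3 d, where the sum of the skeletal muscle markers was lowest, and endothelial and immune markers stayed at 3.74 FPKM or less.

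PLIN2, PLIN4 and HILPDA rose at 3 d, 3 of the 5 genes, where 23.3% of all mRNAs tested were called (8.06% higher and 15.2% lower). PLIN4, CIDEC and HILPDA rose at 6 d, again 3 of 5, beside 11.4% of all mRNAs (3.39% higher and 7.97% lower). PLIN4, CIDEC and HILPDA rose at 9 d as well, where 10.9% of all mRNAs were called (3.41% higher and 7.47% lower). CIDEC passed the filter through its later values, so its calls at 6 and 9 d are not independent of that filter. From 3 to 6 d only PLIN2 among the 5 was called, and it fell, beside 19.1% of all mRNAs (9.85% higher and 9.23% lower). From 6 to 9 d limma called 0 of the 5, beside 4.43% of all mRNAs (2.55% higher and 1.89% lower). Although 3 of the 5 had an unadjusted p under 0.05, the share of all mRNAs with such a p is not given here. PLIN3 was called in none of the 5 comparisons.

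Against 0 d, the median log2 fold change of the 5 genes was 1.21 (3 d), 1.14 (6 d) and 1.43 (9 d), and that of all mRNAs tested was -0.06, -0.15 and -0.19. The medians of the 5 genes at 6 and 9 d are the values of CIDEC, which passed the filter through its later values. The comparisons with 0 d share its 3 libraries. Relative to the median of all mRNAs, PLIN4 differed from 0 d by 2.51 at 6 d and 2.55 at 9 d, CIDEC by 1.29 and 1.62, and HILPDA by 1.83 and 2.81. When libraries were rescaled by median ratio, the median of all mRNAs moved up by 0.16 at 6 d and 0.19 at 9 d. The share of higher calls among all calls went from 29.8% to 40.6% at 6 d and from 31.3% to 46.6% at 9 d. Among the 5 genes this rescaling added a call for PLIN2 at 6 d, and it turned the sign of 2 values close to 0, PLIN3 at 6 d and PLIN4 from 6 to 9 d.

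**Figure D2:**
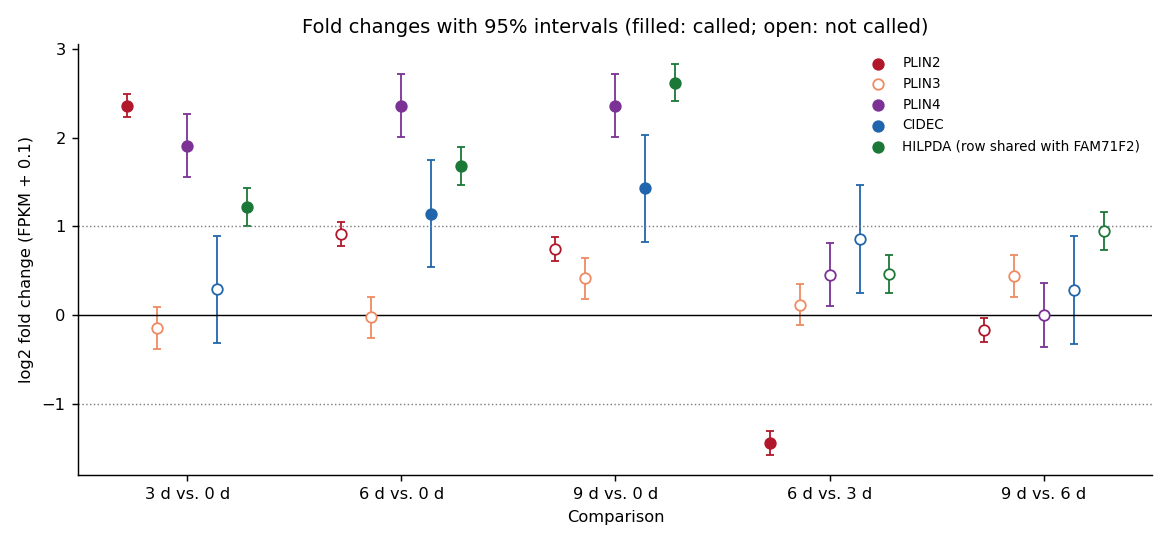
Log2 fold change on the FPKM + 0.1 scale (points) with its 95% interval from limma (bars) for each gene in 5 comparisons; filled points were called and dotted lines mark the fold threshold. PLIN2 has its largest value at 3 d and HILPDA at 9 d, and every point of PLIN3 is unfilled.

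PLIN2, the perilipin of most cell types, measured 129.86, 124.79 and 135.26 FPKM in the 0 d libraries, 647.53, 680.05 and 675.62 in those of 3 d, 229.95, 248.55 and 255.74 in those of 6 d, and 216.06, 206.37 and 231.54 in those of 9 d. All 3 libraries at 3 d lay far above the other 9, and those at 6 and 9 d lay above 0 d and overlapped each other. The means were 130 ± 5.24 FPKM (0 d), 668 ± 17.6 (3 d), 245 ± 13.3 (6 d) and 218 ± 12.7 (9 d) (SD, n = 3). The order of the days was thus 3 d, 6 d, 9 d and 0 d, with overlapping libraries at 6 and 9 d.

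The 3 d mean of PLIN2 was 5.14 times that of 0 d, a log2 fold change of 2.36 (SE 0.06, limma adjusted p = 7.25e-10), and this change ranked 286 from the top among the 15402 mRNAs. From 3 to 6 d PLIN2 fell by 1.45 on the log2 scale (SE 0.06, limma adjusted p = 3.26e-08). At 6 d it was still 1.88 times the 0 d mean, with a log2 fold change of 0.91 (95% interval 0.78 to 1.05, limma adjusted p = 1.77e-06) that missed the fold threshold. Relative to the median of all mRNAs this difference was 1.06, and rescaling by median ratio gave 1.08 and a call. At 9 d the log2 fold change was 0.74 (limma adjusted p = 8.68e-06), or 0.94 relative to the median of all mRNAs, and was not called. From 6 to 9 d it was -0.17, with a 95% interval of -0.30 to -0.03, which leaves out 0, but it did not pass the adjustment over all mRNAs (limma adjusted p = 0.0798).

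PLIN2 was also an abundant mRNA before induction. By mean FPKM it ranked 1307 of 33714 rows at 0 d, and 257, 714 and 782 on the later days.

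PLIN3, a perilipin of the cytosol and of nascent droplets, measured 4.1, 3.42 and 3.91 FPKM in the 0 d libraries, 3.08, 3.34 and 3.9 in those of 3 d, 3.48, 4.01 and 3.69 in those of 6 d, and 5.22, 5.09 and 4.95 in those of 9 d. The 3 libraries at 9 d lay above the other 9, and those of 0, 3 and 6 d overlapped one another. Its means were 3.81 ± 0.351 FPKM (0 d), 3.44 ± 0.419 (3 d), 3.73 ± 0.267 (6 d) and 5.09 ± 0.135 (9 d) (SD, n = 3). The 9 d mean was 1.34 times that of 0 d, with a log2 fold change of 0.41 (95% interval 0.18 to 0.65, limma adjusted p = 0.0119), which stayed under the fold threshold. From 6 to 9 d the log2 fold change was 0.44 (limma adjusted p = 0.0149) and was not called. At 3 d it was -0.15 (95% interval -0.38 to 0.09) and at 6 d -0.03 (95% interval -0.27 to 0.21). Neither value was stable: leaving out 1 library gave -0.24 to -0.07 at 3 d, and median ratio scaling gave -0.07 at 3 d and 0.14 at 6 d, none of them called.

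PLIN4, an exchangeable perilipin known from white adipose tissue, measured 0.13, 0.21 and 0.18 FPKM in the 0 d libraries, 0.8, 0.91 and 1.06 in those of 3 d, 1.23, 1.43 and 1.23 in those of 6 d, and 1.15, 1.2 and 1.56 in those of 9 d. The 0 d libraries were the lowest and did not overlap any other day, those of 3 d lay below those of 6 and 9 d, and 6 and 9 d overlapped. The means were 0.173 ± 0.0404 FPKM (0 d), 0.923 ± 0.131 (3 d), 1.30 ± 0.115 (6 d) and 1.30 ± 0.224 (9 d) (SD, n = 3).

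Against 0 d, the mean of PLIN4 was 5.33 times as high at 3 d, 7.48 times at 6 d and 7.52 times at 9 d. The log2 fold changes were 1.91 (limma adjusted p = 3.84e-06), 2.36 (limma adjusted p = 2.12e-06) and 2.36 (limma adjusted p = 2.56e-06), each with an SE of 0.16. All 3 calls were lost with a pseudocount of 1, which gave 0.71, 0.97 and 0.97, since that pseudocount is close to the level of PLIN4 itself. From 3 to 6 d the log2 fold change was 0.45 (95% interval 0.10 to 0.81, limma adjusted p = 0.0381), under the fold threshold. That adjusted p was above 0.05 with a pseudocount of 0.01 (0.0616), with no filter (0.0844) and on leaving out 3 d replicate 1 or 2 or any library of 6 d (0.0611 to 0.123, limma). From 6 to 9 d the 95% interval ran from -0.36 to 0.35.

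CIDEC, the droplet fusion protein, was the lowest of the 5 genes. It measured 0.09, 0.1 and 0.06 FPKM in the 0 d libraries, 0.07, 0.11 and 0.21 in those of 3 d, 0.37, 0.24 and 0.31 in those of 6 d, and 0.57, 0.26 and 0.39 in those of 9 d. The libraries of 6 and 9 d lay above all 6 of 0 and 3 d, while 0 and 3 d overlapped, as did 6 and 9 d. Its means were 0.0833 ± 0.0208 FPKM (0 d), 0.130 ± 0.0721 (3 d), 0.307 ± 0.0651 (6 d) and 0.407 ± 0.156 (9 d) (SD, n = 3), so the spread at 3 and 9 d was a large part of the mean.

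CIDEC rose by 1.14 on the log2 scale at 6 d (SE 0.27, limma adjusted p = 0.00832) and by 1.43 at 9 d (SE 0.27, limma adjusted p = 0.00234). With a pseudocount of 1 the values were 0.27 and 0.37 and neither was called. At 3 d the log2 fold change was 0.29 (95% interval -0.32 to 0.89, limma adjusted p = 0.408), and it became 0.05 without 3 d replicate 3 and 0.48 without 3 d replicate 1, not called in either case. From 3 to 6 d it was 0.86 (95% interval 0.25 to 1.46, limma adjusted p = 0.0245) and was not called. Without 3 d replicate 3 (0.21 FPKM), the highest of that day, it became 1.09 and was called, and a pseudocount of 0.01 gave 1.28, also called. Other settings took its adjusted p above 0.05, among them leaving out 3 d replicate 1 (0.07 FPKM; 0.66, limma adjusted p = 0.0893) or 6 d replicate 1 (0.37 FPKM; 0.74, limma adjusted p = 0.0799) and using no filter (limma adjusted p = 0.0634).

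HILPDA, the inhibitor of PNPLA2, measured 3.68, 3.99 and 3.56 FPKM in the 0 d libraries, 8.02, 8.98 and 9.44 in those of 3 d, 13.19, 11.96 and 11.41 in those of 6 d, and 24.38, 21.22 and 25.12 in those of 9 d in the row it shares with FAM71F2. Each day lay above the day before with no overlap, and HILPDA was the only gene of the 5 with this order. Its means were 3.74 ± 0.222 FPKM (0 d), 8.81 ± 0.725 (3 d), 12.2 ± 0.911 (6 d) and 23.6 ± 2.07 (9 d) (SD, n = 3).

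Against 0 d, the mean of HILPDA was 2.35 times as high at 3 d, 3.26 times at 6 d and 6.30 times at 9 d. The log2 fold changes were 1.21 (limma adjusted p = 2.53e-06), 1.68 (limma adjusted p = 6.55e-07) and 2.62 (limma adjusted p = 4.91e-08), each with an SE of 0.10. Among the 15402 mRNAs the change at 9 d ranked 94 from the top, the highest rank that any of the 5 genes reached in the 5 comparisons. Between neighbouring days the log2 fold change was 0.46 from 3 to 6 d (limma adjusted p = 0.00252) and 0.94 from 6 to 9 d (95% interval 0.73 to 1.16, limma adjusted p = 9.25e-05), both under the fold threshold. The second was close to it, since without 6 d replicate 1 (13.19 FPKM) it became 1.00 and without 9 d replicate 2 (21.22 FPKM) it became 1.02, and each was then called.

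**Figure D3:**
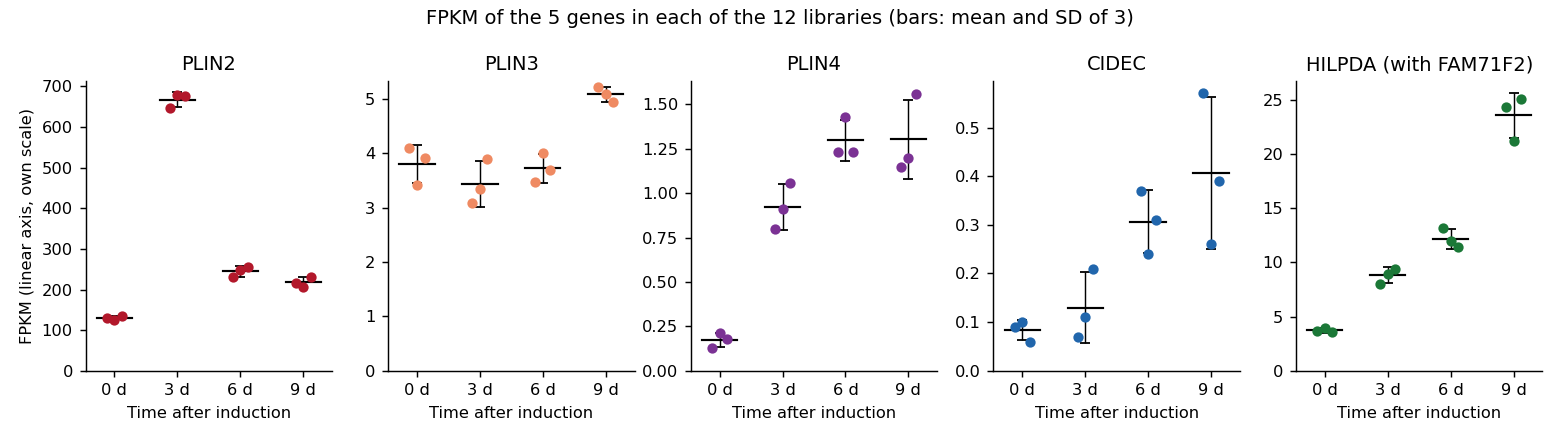
FPKM of PLIN2, PLIN3, PLIN4, CIDEC and HILPDA in each library (points), with the mean and SD of the 3 libraries of a day (bars), each gene on its own linear axis from 0. PLIN2 stands highest at 3 d, while HILPDA climbs from 3.74 FPKM at 0 d to 23.6 at 9 d.

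FPKM is a level per length of transcript, so the 5 genes could be set beside each other. PLIN2 exceeded the next of the 5 in every library, and CIDEC was the lowest in every library. At 0 d PLIN3 and HILPDA followed PLIN2 with overlapping values, and from 3 d on HILPDA lay above PLIN3 in all 9 libraries. PLIN4 stood between PLIN3 and CIDEC in all 12. The sum of the 5 genes was 138 ± 5.23 FPKM (0 d), 681 ± 18.7 (3 d), 262 ± 12.5 (6 d) and 248 ± 14.7 (9 d) (SD, n = 3), most of it PLIN2.

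Whether the genes changed in step with PLIN2 was examined through the log2 ratio of each other gene to PLIN2, on FPKM + 0.1. The ratio of HILPDA to PLIN2 had day means of -5.08 (0 d), -6.23 (3 d), -4.32 (6 d) and -3.21 (9 d), with a largest SD of 0.19 on any day. It dropped while PLIN2 was at its peak and then passed its value at 0 d, with no overlap between any of the days. The ratio of PLIN3 to PLIN2 was -5.06, -7.57, -6.00 and -5.39 in the same order, with a largest SD of 0.14. It was lowest at 3 d and stayed below the 0 d libraries at 9 d.

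The ratio of PLIN4 to PLIN2 had day means of -8.90 (0 d), -9.36 (3 d), -7.46 (6 d) and -7.29 (9 d), with a largest SD of 0.24. Here 0 and 3 d lay below 6 and 9 d, with a gap between them much wider than that within either. The ratio of CIDEC to PLIN2 was -9.48, -11.55, -9.24 and -8.79, with a largest SD of 0.42. It was lowest at 3 d, and the libraries of 6 d overlapped those of 0 d and of 9 d.

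Each ratio differed between the days when every way to divide the 12 libraries among 4 days was enumerated (exact permutation, one-sided). The span from the lowest to the highest day mean was 2.51 for PLIN3 (p = 6.49e-05, adjusted p = 0.000162, exact permutation), 2.07 for PLIN4 (p = 0.00013, adjusted p = 0.000216), 2.75 for CIDEC (p = 0.00136, adjusted p = 0.00136) and 3.02 for HILPDA (p = 6.49e-05, adjusted p = 0.000162). The p of 6.49e-05 is the smallest this enumeration can give, and the adjustment covered 5 tests, the 4 ratios and the share of PLIN2 given next. PLIN2 is part of all 5, so its own peak enters each test, and a gene with a flat course would also differ. The ratio tests thus show only that no gene kept step with PLIN2. They are not separate evidence for the course of each gene.

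PLIN2 made up 84.1, 80.0 and 80.3% of the summed FPKM of the 5 perilipin genes in the 0 d libraries and 93.5, 92.6 and 92.5% in those of 3 d. The share was 87.6, 85.9 and 85.1% in those of 6 d and 84.0, 85.8 and 84.1% in those of 9 d. The share was highest in the 3 d libraries, and 9 d overlapped both 0 d and 6 d, which did not overlap each other. The share differed between days, with a span of 11.4 percentage points between day means (p = 0.000455, adjusted p = 0.000568, one-sided exact permutation). The row of PLIN1 and PEX11A made up most of the rest, between a mean of 6.53% at 3 d and a mean of 16.0% at 0 d. Without that row, a choice made after seeing the data, the share of PLIN2 was 97.0, 99.4, 98.0 and 97.1% on the 4 days.

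**Figure D4:**
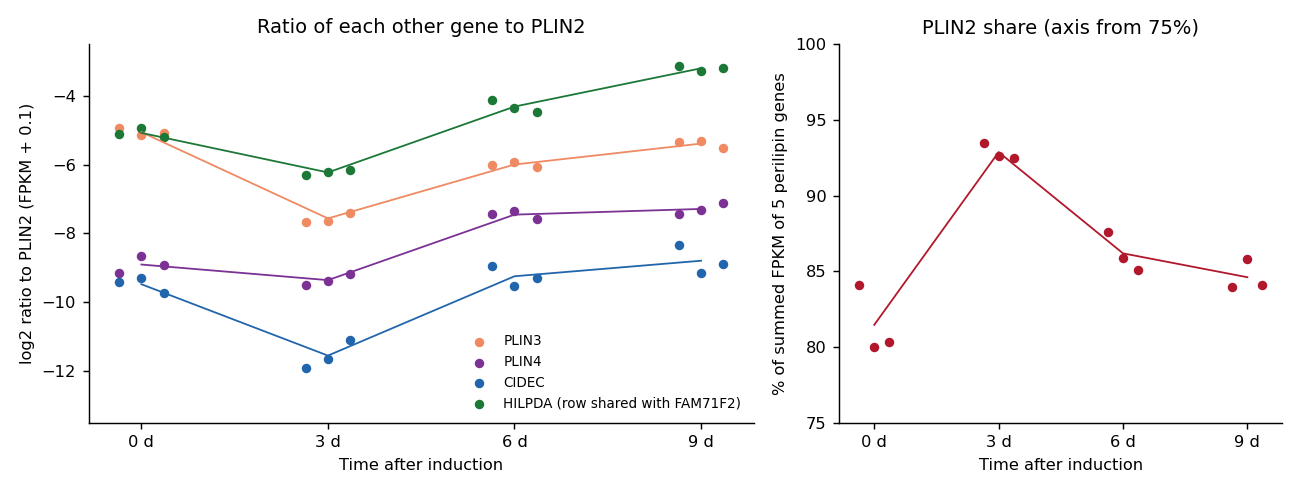
Left, log2 ratio of each other gene to PLIN2 on the FPKM + 0.1 scale; right, PLIN2 as a percentage of the summed FPKM of 5 perilipin genes, on an axis from 75%. Points are libraries and lines join day means; the ratios dip at 3 d and the share peaks there at 92.9%.

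For each gene, the 3 mRNAs most like it were found among named mRNAs with a mean of at least 1 FPKM, by the root mean square difference of log2(FPKM + 0.1) over the 12 libraries after centring each gene. They were picked by their course over these same libraries, so a shared highest or lowest day follows from the choice. For PLIN2 these were SCUBE2 (0.14), DPY19L1 (0.14) and NFKBIZ (0.15), whose means were highest at 3 d, at 32.9, 54.6 and 14.1 FPKM. For HILPDA they were SATB1 (0.28), ARRDC4 (0.29) and CPZ (0.30), each highest at 9 d, with ARRDC4 at 25.3 FPKM at 0 d and 132 at 9 d. For PLIN4 they were IGFBP2 (0.22), MFAP5 (0.23) and RBM47 (0.23), all lowest at 0 d. For PLIN3 they were LOXL2 (0.11), GABARAPL2 (0.11) and TAPBP (0.11), and for CIDEC they were AMPD3 (0.29), FOXP4 (0.30) and TSPAN18 (0.30).

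In the RefSeq annotation, PLIN4 lies beside PLIN5, which was listed at 0 in all 12 libraries, and beside HDGFL2, which was not called in any comparison with 0 d. The neighbours of PLIN2 are DENND4C, which was not called, and HAUS6, whose mean went from 12.6 FPKM at 0 d to 26.5 at 3 d (log2 fold change 1.07, called). PLIN3 lies beside TICAM1, which fell by 1.72 at 3 d on the log2 scale while PLIN3 was not called, and beside ARRDC5, which was at or near 0. CIDEC lies between JAGN1 and RPUSD3, and HILPDA lies beside IMPDH1 on its other side, and none of these 3 was called in a comparison with 0 d. These neighbours were looked up after the values of the 5 genes had been seen.

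Only PLIN2 of the 5 genes was named as host of circRNAs, RNAs closed into a circle. On the ARS-UCD1.2 build, circRNA2139 spans 5 exons at chr8:25118323-25123773 on the plus strand and had 1 read, in 0 d replicate 2 (an SRPBM of 17.0). The intronic ciRNA517 at chr8:25125314-25125547 on the plus strand had 2 reads, both in 3 d replicate 2 (an SRPBM of 27.3). At such counts no comparison between days was possible.

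Among the other perilipin and CIDE genes, PLIN1, the main coat protein of adipocyte droplets, shared its row with PEX11A. This row measured 20.35, 27.62 and 29.02 FPKM in the 0 d libraries, 41.15, 49.99 and 49.99 in those of 3 d, 27.83, 35.41 and 40 in those of 6 d, and 34.85, 27.93 and 37.38 in those of 9 d. It was highest at 3 d without overlap, as PLIN2 was, but its log2 fold change of 0.88 (limma adjusted p = 0.00199) was not called. CIDEA, a relative of CIDEC known from brown fat, had day means of 11.9 (0 d), 5.81 (3 d), 7.26 (6 d) and 6.11 FPKM (9 d), and fell by 1.03 at 3 d (limma adjusted p = 0.000151). CIDEA was thus above CIDEC in every library. CIDEB reached at most 0.46 FPKM, was not called against 0 d, and rose by 1.17 from 3 to 6 d (limma adjusted p = 0.00183), from a mean of 0.0967 FPKM at 3 d. The median of the 3 tested genes of this list was -0.99 at 3 d, 0.19 at 6 d and 0.38 at 9 d.

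The 6 lipases and regulators act on the droplets that the coat proteins cover. At 3 d, where PLIN2 peaked, 5 of the 6 rose and 1 fell, with a median log2 fold change of 1.26. On that day 8.06% of all mRNAs were called higher and 15.2% lower. The 1 that fell, MGLL, was the most abundant of the 6, with means of 173 FPKM at 0 d and 42.3 at 3 d. None of the 5 that rose had a mean above 3.69 FPKM at 3 d. The summed FPKM of the list therefore fell, from a mean of 176 at 0 d to 52.6 at 3 d. Of the 5 lipases and regulators that rose, G0S2 (mean 0.0533 FPKM at 0 d) and PNPLA3 (0.0667) were below the filter at 0 d. Each had 1 library at 0 on that day and passed the filter only through later days. The target of HILPDA, PNPLA2, rose by 1.08, its coactivator ABHD5 by 1.04, its inhibitor G0S2 by 3.96, the hormone-sensitive lipase LIPE by 2.22 and PNPLA3 by 1.44, while the monoacylglycerol lipase MGLL fell by 1.96. PNPLA2 had means of 1.68, 3.69, 2.33 and 1.22 FPKM on the 4 days, so at 9 d, where HILPDA was highest, it lay below its level at 0 d (log2 fold change -0.43, not called). At 6 d only PNPLA3 was called (1.45), and at 9 d PNPLA3 rose by 1.25 and MGLL fell by 1.04, the latter with overlapping libraries. Of all mRNAs, 11.4% were called at 6 d and 10.9% at 9 d. The list's median was 0.61 at 6 d and -0.15 at 9 d.

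Of 12 genes for droplet formation and other droplet surface proteins, 10 were tested, and limma called none of them higher against 0 d, although 7 at 3 d, 6 at 6 d and 7 at 9 d had an unadjusted p under 0.05 in either direction. The share of all mRNAs with such an unadjusted p is not given here. Of all mRNAs, 8.06%, 3.39% and 3.41% were called higher on these days, so none among 10 is close to those shares. Called lower were 2 of the 10 at 3 d, 3 at 6 d and 1 at 9 d, where 15.2%, 7.97% and 7.47% of all mRNAs were called lower. FITM1 fell on all 3 days, most at 9 d, where it fell by 2.18 on the log2 scale. BSCL2, in a row shared with LRRN4CL, fell at 3 and 6 d (at 3 d it fell by 1.60), and METTL7A fell by 1.37 at 6 d. At 3 and 9 d METTL7A had log2 fold changes of -0.72 and -0.93 (limma adjusted p = 0.0399 and 0.0186), which missed only the fold threshold, and it was not called from 3 to 6 d or from 6 to 9 d. The list's median was -0.44 at 3 d, 0.01 at 6 d and -0.26 at 9 d, below that of the 5 coat protein genes on each day.

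PLIN2, PLIN4, ANGPTL4 and others are known targets of PPAR receptors. A list of such targets held 11 genes, none of them among the 5 coat protein genes, and 10 were tested. Its gene PEX11A was read in the row shared with PLIN1. At 3 d, 6 rose, where 8.06% of all mRNAs were called higher. They were led by PDK4 (log2 fold change 5.95) and FABP4 (4.75), and the list's median was 1.36. At 6 d, 4 rose and CPT1A fell by 2.35, beside 3.39% of all mRNAs called higher and 7.97% called lower. At 9 d, 3 rose, led by CD36 (4.33), and 1 fell, again CPT1A, beside 3.41% called higher and 7.47% called lower. The list's median was 0.41 at 6 d and 0.34 at 9 d. The summed FPKM of the list had its highest mean at 3 d (4262), as PLIN2 did. From 3 to 6 d, 6 of its genes fell, beside 9.23% of all mRNAs called lower.

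HILPDA is known as hypoxia-responsive, and all 15 other genes on such a list were tested. At 3 d, 5 rose and 2 fell, with PFKFB3 at 3.94, BNIP3, in a row shared with a LOC gene, at 3.58, BHLHE40 at -3.09 and NDRG1 at -1.27. At 6 d 6 rose, led by CA9 (5.66), and at 9 d, where HILPDA was highest, 10 rose. Of all mRNAs tested, 8.06% (3 d), 3.39% (6 d) and 3.41% (9 d) were called higher, and 15.2% were called lower at 3 d. The list's median was 0.87, 0.96 and 1.44 on these days, beside 1.21, 1.68 and 2.62 for HILPDA. From 6 to 9 d, 2 of the 15 rose, beside 2.55% of all mRNAs, and the list's median was 0.06. HILPDA had 0.94 in that comparison and was not called.

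**Figure D5:**
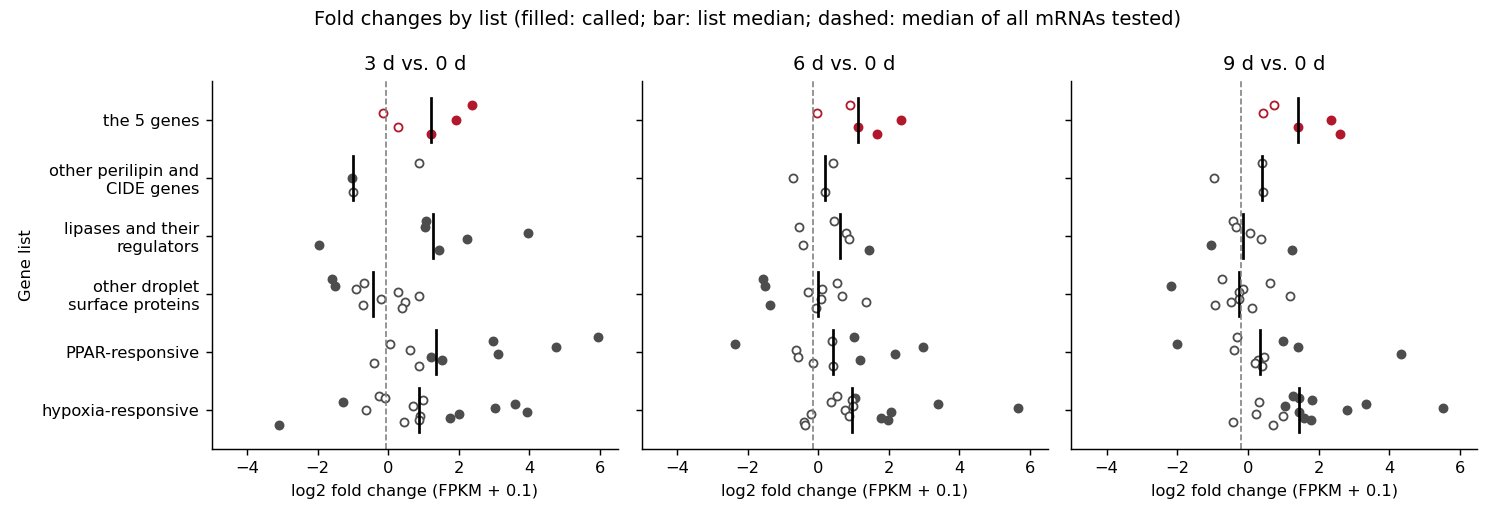
Log2 fold change on the FPKM + 0.1 scale against 0 d for each tested gene of 6 lists (points; filled, called), with the list median (bar) and the median of all 15402 mRNAs (dashed line). The coat protein genes have medians of 1.21, 1.14 and 1.43, and the hypoxia-responsive list moves highest at 9 d.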

How the data were processed

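The authors mapped the reads to the bovine genome (ARS-UCD1.2 in the study's methods; the submitters' notes list mm8, with HISAT2 2.0 and StringTie 1.3.0) and deposited FPKM for each mRNA. For circRNAs the authors deposited a count of back-spliced reads and a signal, SRPBM, which scales it to mapped reads. The labels describe poly(A) selection and the study's methods depletion of rRNA. Tables for lncRNAs and miRNAs were not used here.

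Members were matched by name, also within joint names. Since FPKM are not counts, limma 3.58.1 (R 4.3.3; lmFit, contrasts.fit, eBayes with trend), checked on simulated data, took the place of the edgeR test in the study's methods, with 1 mean per day fitted over the 12 libraries. Ratios and the share of PLIN2 were tested by exact permutation. Python 3.11.15, NumPy 2.4.6, pandas 2.3.3 and Matplotlib 3.10.9 were used. No pair of libraries held identical values, and within days r on log2(FPKM + 1) across genes was 0.991 to 0.993.

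The members and lists were chosen with earlier results of these data known. Named were every member, the other perilipin and CIDE genes and the lipases; of other lists, up to 3 called genes each way against 0 d with the largest change, and those at 0 in all libraries; and the 3 mRNAs most like each member. A planned search of promoters was not run. Alternatives were other pseudocounts (1 and 0.01), filters (none, or a mean FPKM of at least 1), median ratio scaling, only the 6 libraries compared, the replicate number as a block, eBayes without trend and robust, and leaving out each library. A share without PLIN1 and a count of only the members with their own row were added after seeing the data.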

Additional observations from a re-analysis of the deposited data

How the results depend on the processing

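A pseudocount of 1 lowered the mRNAs called at 3, 6 and 9 d against 0 d from 3585, 1749 and 1675 to 2184, 967 and 888, those from 3 to 6 d from 2939 to 1688, and those from 6 to 9 d from 683 to 368. The members called went from 3 to 1 at 6 and 9 d. PLIN4 kept its direction at 0.71, 0.97 and 0.97 at 3, 6 and 9 d, and CIDEC at 0.27 and 0.37 at 6 and 9 d, none of them called. The larger pseudocount by its construction shrinks changes of genes below 1 FPKM. PLIN4 from 6 to 9 d turned from -0.0016 to 0.00098. With a pseudocount of 0.01, CIDEC from 3 to 6 d became 1.28, and 2 members were called.

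With a mean FPKM of at least 1, PLIN4 and CIDEC were not tested, 1 member was called at 6 and 9 d, and 1114 mRNAs at 9 d. Median ratio scaling gave 1.08 for PLIN2 (called) and 0.14 for PLIN3 at 6 d, and 0.034 for PLIN4 from 6 to 9 d; the cause was not tested.

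Leaving out 1 library gave 0.66 to 1.09 for CIDEC from 3 to 6 d (1 to 2 members called) and 0.90 to 1.02 for HILPDA from 6 to 9 d (0 to 1 called). PLIN3 at 6 d ranged from -0.10 to 0.024 and PLIN4 from 6 to 9 d from -0.13 to 0.076. The ratios and the share stayed on their side of the threshold under each alternative with a test.

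Whether libraries with the same replicate number share more than that number is unknown. Of 18 such pairs, 2 had deviations from the day means correlated over 0.1 (-0.10 to 0.11). The median was 0.02, against -0.01 for pairs with different numbers, and 6 of 12 libraries correlated best with their own number. With the replicate block, 3591, 1746, 1683, 2933 and 657 mRNAs were called, and no member's call changed. CIDEC, at 0.06 to 0.57 FPKM, had the lowest values, and the fragments behind them are unknown.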
